A study of Mus musculus with 24 samples.

Results

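The genes described here are 10 genes of cholesterol sensing, efflux, storage and oxidation in mouse macrophages, listed by name, with no threshold on their values: Nr1h2, Nr1h3, Abca1, Abcg1, Mylip, Apoe, Soat1, Npc1, Npc2 and Ch25h. All 10 were among the 55421 genes counted and among the 16593 genes that passed the filter on low counts. Their transcripts were counted in 24 RNA sequencing libraries of bone marrow-derived macrophages (BMDMs), in 4 groups of 6, which crossed genotype (wildtype or AhR-deficient) with stimulation (none or LPS, the bacterial endotoxin). The AhR-deficient animals carried a deletion of the aryl hydrocarbon receptor in the whole body (B6.129-Ahr tm1Bra/J) and the wildtype animals were C57/B6/J. Mice of both sexes aged 7 to 14 weeks were used, with 6 animals per group in 1 experiment. In all 4 groups bone marrow was first grown with GM-CSF at 10 ng/ml and TGF-β at 2 ng/ml. Part of the medium was later exchanged for medium with higher concentrations of both. This culture gives macrophages that resemble those of the lung alveoli. LPS was added at 97 EU/ml on day 6 for 24 h. The protocol ends with 10 min of the Ca2+ ionophore A23187 at 5 µM, and the labels do not separate the unstimulated cultures from this step. The labels also do not say whether stimulated and unstimulated cultures came from the same animals.

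Liver X receptors are nuclear receptors that bind oxysterols, the oxidised forms of cholesterol, and work as partners of retinoid X receptors. Nr1h2 encodes LXRβ, which most cells make, and Nr1h3 encodes LXRα, which is abundant in macrophages and liver. When sterols are plentiful they raise the transcription of the exporters Abca1 and Abcg1, of the lipid acceptor Apoe and of Mylip, a ubiquitin ligase that lowers lipoprotein uptake. Npc2 and Npc1 pass cholesterol out of the lysosome, Soat1 esterifies it for storage in lipid droplets, and Ch25h makes 25-hydroxycholesterol, an oxysterol that macrophages release during infection. Macrophages of the lung alveoli handle large amounts of lipid because they clear surfactant.

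Depth was between 45106052 and 76992663 counts per library, and Apoe, the least counted of the 10 genes, had 8074 counts in all. Levels are given as CPM, counts per 1000000 of the library after TMM scaling, and levels of different genes are compared only as FPKM, which divides CPM by the length of the gene's merged exons in kilobases. A change was called at an adjusted p of at most 0.05 in edgeR's quasi-likelihood test (Benjamini-Hochberg over the 16593 genes), and a DEG also moved by at least 1 on the log2 scale. Ahr itself lay between 9.60 and 43.1 CPM in wildtype and between 4.74 and 11.0 CPM in AhR-deficient libraries without stimulation, and after LPS between 6.58 and 27.9 CPM and between 21.5 and 63.8 CPM. Gene counts include exons outside the deleted part, so these levels do not check the labels. Ahrr, a direct target of the receptor, lay between 13.3 and 96.6 CPM in the wildtype libraries and under 1.05 CPM in every AhR-deficient one. Replicates carry library numbers from 17 to 40, which form 3 runs of 8 (17 to 24, 25 to 32, 33 to 40) with 2 libraries of each group in each run. The labels do not call the runs batches. The slope of log2 CPM on log2 gene length over the tested genes went from 0.095 to 0.585 among libraries, with run means of 0.36, 0.53 and 0.26, and several of the 10 genes followed it closely. Genotype differences within runs are given beside the fits, and the part of the slope in each result was not tested beyond those fits. In each comparison, a further test of this slope between groups gave no separation (exact permutation tests, two-sided, 6 against 6 libraries, adjusted p = 0.991 in all 4). These permutations ignored the runs, whose mean slopes differ. Because each run holds 2 libraries of each group, the test cannot decide whether the slope differed between groups within runs.

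The cells had the transcripts of macrophages in every group, with the sum over 7 macrophage markers between 13930 and 33700 CPM, while the sum over 6 lymphocyte markers did not exceed 0.553 CPM. Lyz2 gave most of the macrophage sum, with 26659962 counts in all libraries, and Adgre1 came next with 2128248. The macrophage sum had medians of 17760 CPM in wildtype and 29290 CPM in AhR-deficient libraries without stimulation, and 18790 and 20500 CPM after LPS. Markers of other cells moved with genotype. The 8 neutrophil and promyelocyte markers summed to a median of 1714 CPM in unstimulated wildtype and 285 CPM in unstimulated AhR-deficient libraries (ranges 1146 to 8456 and 188 to 570.3), and to 805 and 162 CPM after LPS (467 to 4847 and 107 to 667). The 8 dendritic and Langerhans cell markers summed to medians of 171.5 and 12.1 CPM without stimulation (74.5 to 211 and 10.1 to 19.1), and 1434 and 227 CPM after LPS (580.4 to 2453 and 100.4 to 894). The sum over 9 alveolar macrophage markers lay at medians of 7506 and 10020 CPM without stimulation and 4970 and 8693 CPM after LPS, in wildtype and AhR-deficient libraries respectively. The genotypes overlapped in both states (6886 to 9354 and 8176 to 11340 CPM, then 3771 to 8207 and 7161 to 11050 CPM). Of 6 tested mast cell and basophil markers 4 were called lower in AhR-deficient libraries in each state, beside 4.29% of all genes without stimulation and 8.30% after LPS, while the sum over 7 markers lay at medians of 14.6 and 3.32 CPM without stimulation (6.90 to 22.8 and 2.33 to 4.34) and 478 and 618 CPM after LPS (329.7 to 508 and 532.7 to 834). The 6 erythroid and platelet markers summed to medians of 51.6 and 113 CPM without stimulation (at most 80.1 and at least 88.5) and to 129 and 105 CPM after LPS. The 6 stromal markers summed to medians of 0.917 and 3.39 CPM without stimulation and, without overlap, to 1.39 and 12.8 CPM after LPS (0.792 to 9.44 and 10.03 to 29.6). In bulk RNA, fewer cells of a type and less RNA per cell cannot be told apart. The part of these markers in the genotype differences below was not tested.

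Few of the 10 genes were called between genotypes. Without stimulation 1 rose in AhR-deficient BMDMs, Soat1, where 1.83% of all tested genes were called higher, and 0 fell, where 4.29% of all genes were called lower. After LPS 3 rose, Ch25h, Npc2 and Soat1, beside 4.33% of all genes, and 0 fell, beside 8.30%. Of all genotype calls after LPS 34.3% were higher, a share that was 14.4% with scaling by total library size. LPS moved more of them. In wildtype BMDMs 4 rose (Ch25h, Abca1, Npc2, Nr1h2) beside 19.7% of all genes and 2 fell (Nr1h3, Soat1) beside 18.3%, and in AhR-deficient BMDMs the calls fell on these 6 genes again, in the directions seen in wildtype, beside 22.1% and 22.6%. The interaction, the difference between both LPS responses, was called higher for 1 gene, Ch25h, beside 1.95% of all genes, and lower for 0, beside 2.34%. Each of the 3 counts of 0 was also 0 at edgeR's unadjusted p under 0.05, with DESeq2 and with limma-voom. Abcg1, Mylip, Apoe and Npc1 were called in none of the 5 comparisons, and all of these but Apoe were called in at least 1 of them with other settings, given beside each gene. The median log2 fold change over the 10 genes was 0.36 for genotype without stimulation and 0.29 after LPS, where the medians over all genes tested were −0.01 and −0.05, and 9 and 7 of the 10 values were above 0. For LPS it was 0.46 in wildtype and −0.02 in AhR-deficient BMDMs, beside 0.03 and −0.03 over all genes.

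**Figure D1:**
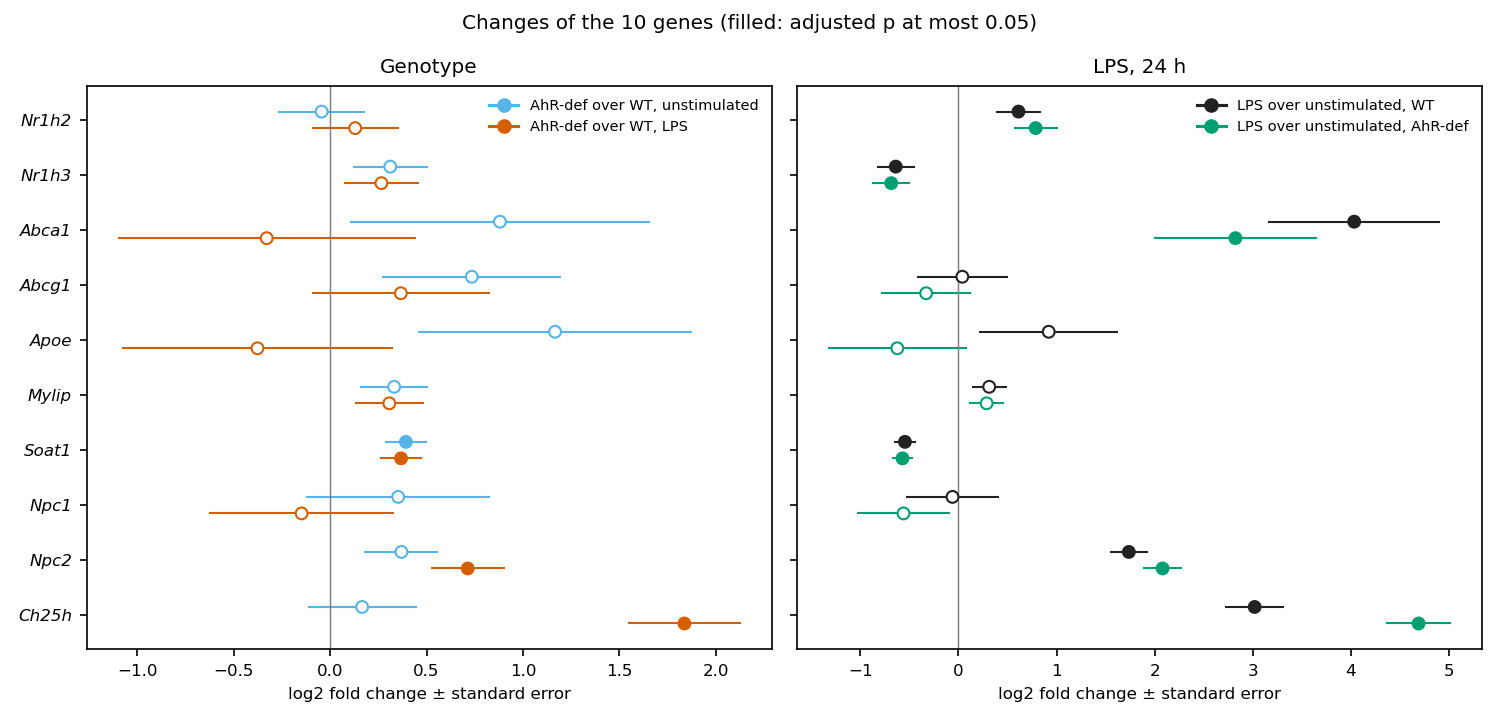
Log2 fold changes (x axis, ± standard error) of the 10 genes (y axis) from the edgeR fit of 24 libraries, for genotype in both states (left) and for LPS in both genotypes (right). Filled points passed an adjusted p of 0.05; the left panel has filled points for Soat1 in both states and for Npc2 and Ch25h after LPS, and the open points of Abca1, Abcg1, Apoe and Npc1 have the widest bars.

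Per length, Npc2 was the most abundant of the 10 transcripts in each of the 4 groups. In unstimulated wildtype BMDMs its level lay between 146 and 274.5 FPKM, above every library of the next gene, Soat1 (40.4 to 50.6 FPKM). Abcg1 (12.2 to 69.9) and Nr1h3 (24.4 to 42.4) followed, and neither pair of neighbours from Soat1 to Nr1h3 was separated beyond its spread. Nr1h2 (6.59 to 13.8) lay under every Nr1h3 library, and Ch25h, Mylip and Npc1 came next at medians of 7.27, 6.65 and 6.16 FPKM with overlapping ranges. Abca1 and Apoe were lowest at medians of 2.29 and 1.66 FPKM. After LPS the order changed, and Ch25h was second in both genotypes, at a median of 68.2 FPKM in wildtype and 238.0 FPKM in AhR-deficient libraries, above Abcg1 at 46.1 and 59.7 FPKM, whose range its own overlapped. Npc2 reached medians of 566.5 and 1017 FPKM. Merged exons overstate the length of some transcripts, for Npc2 by 5438 against 3299 bases of its principal transcript and for Npc1 by 11317 against 5224, and Npc2 was first by either length.

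**Figure D2:**
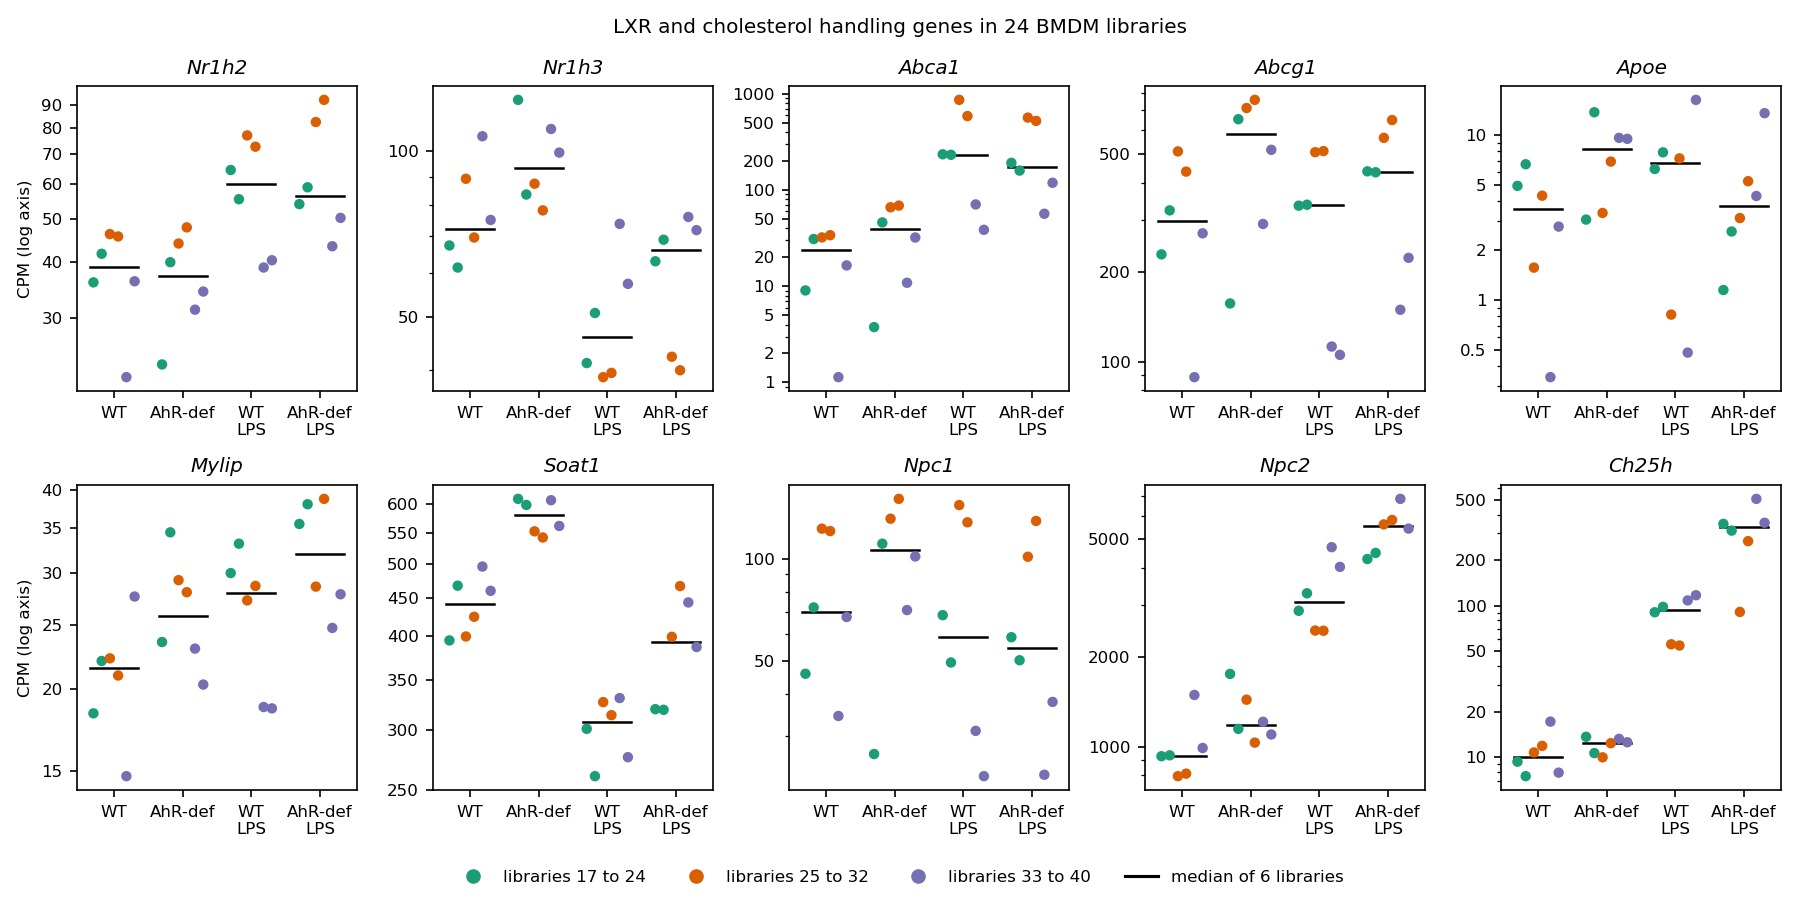
Level of each gene (y axis, CPM on a log axis) in the 4 groups (x axis), with 1 point per library coloured by run of library numbers and a bar at the median of 6. LPS libraries of Ch25h and Npc2 lie above all unstimulated ones of their genotype, and points of Abca1, Abcg1 and Npc1 are ordered by run within the LPS groups.

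Ch25h, cholesterol 25-hydroxylase, is an intronless gene (ENSMUSG00000050370, chromosome 19, 34473778 to 34475164 on the minus strand of mm10) and was the gene of the set with the largest genotype difference after LPS. Without stimulation it was low and similar in both genotypes, with 7.53 CPM at lowest, a median of 10.1 and 17.2 at highest in wildtype, and 10.0, 12.5 and 13.7 CPM in AhR-deficient libraries. After LPS the wildtype libraries held 54.7, 94.5 and 117 CPM (lowest, median, highest) and the AhR-deficient ones 91.1, 330.1 and 507 CPM. Of the AhR-deficient libraries, 5 lay above every wildtype library, at 267 CPM and over, and 1, replicate 31, lay inside the wildtype range, so the groups overlapped. No member of the set was free of overlap in this comparison, beside 7.11% of all genes.

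Ch25h rose with LPS by a log2 fold change of 3.02 (SE 0.30, adjusted p = 2.92e-08) in wildtype and 4.69 (SE 0.33, adjusted p = 4.16e-11) in AhR-deficient BMDMs, with no overlap in either. The increase was larger in AhR-deficient cells, with an interaction of 1.67 (SE 0.40, adjusted p = 0.0163). After LPS, Ch25h was 3.57-fold higher in AhR-deficient than in wildtype BMDMs (log2 fold change 1.84, SE 0.29, adjusted p = 9.28e-05), the only DEG of the set between genotypes, while without stimulation the difference was 0.17 (SE 0.28, adjusted p = 1), and 0.50, −0.022 and 0.13 within the runs. Within the runs the difference after LPS was 1.80, 1.49 and 1.90 on the scale of log2(CPM + 0.5), 2 against 2 libraries each. The genotype call after LPS was made with every alternative setting, and the interaction call was lost with limma-voom (1.52, adjusted p = 0.0715) and without libraries 33 to 40 (1.61, adjusted p = 0.101). Because the counts are stranded, the noncoding gene Gm26902 on the opposite strand, which shares 357 bases with Ch25h, does not add to them.

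The sequence before the Ch25h start is shown because the genotype difference concerns a transcription factor that binds DNA. AhR with its partner ARNT is known to bind a core of GCGTG. RefSeq's promoter table (GRCm38.p6) held 8 of the 10 genes, all but Abcg1 and Npc1, and each window of 250 bases before to 50 after the start was searched on both strands for the core and for TNGCGTG, motifs that were chosen after the sequences had been seen. Ch25h was the only one of the 8 with TNGCGTG, from −178 to −172, which 5.12% of 27025 promoters hold, and the core alone, part of it, was also in the windows of Soat1, Npc2 and Mylip beside 32.5% of all promoters. In the sequence of chr19:34475199-34475398, minus strand, from −250 to −51, capitals mark TNGCGTG.
Ch25h: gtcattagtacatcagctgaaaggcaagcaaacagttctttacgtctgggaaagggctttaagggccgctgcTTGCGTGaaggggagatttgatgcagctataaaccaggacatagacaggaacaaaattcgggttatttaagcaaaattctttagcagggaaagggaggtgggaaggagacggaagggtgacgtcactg
A match describes these letters and does not show a bound site.

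The lysosomal genes differed from each other. Npc2 (ENSMUSG00000021242, chromosome 12, 84754562 to 84773152 on the minus strand), a small soluble protein of the lysosome that binds cholesterol, lay between 794 and 1493 CPM in unstimulated wildtype libraries with a median of 931, and between 1031 and 1758 CPM with a median of 1180 in AhR-deficient ones. After LPS it lay between 2459 and 4708 CPM (median 3081) in wildtype and between 4294 and 6852 CPM (median 5530) in AhR-deficient libraries. LPS libraries were thus above all unstimulated ones, and between genotypes after LPS only the top of the wildtype range overlapped the bottom of the AhR-deficient range. Npc2 rose with LPS by 1.74 (SE 0.20, adjusted p = 1.73e-07) in wildtype and 2.08 (SE 0.20, adjusted p = 7.49e-09) in AhR-deficient BMDMs, and was 1.64-fold higher in AhR-deficient cells after LPS (log2 fold change 0.71, SE 0.19, adjusted p = 0.0137). The genotype difference after LPS was above 0 in each run, at 0.52, 1.22 and 0.48, and was called in all alternatives tried but a minimum fold change of 2, which it does not reach. Without stimulation it was 0.37 (SE 0.19, adjusted p = 0.430), and within the runs 0.61, 0.60 and −0.074. It was called without libraries 33 to 40, at 0.62 (adjusted p = 0.0413), with a covariate for the length slope (0.40, adjusted p = 0.0125) and with the first residual component, the main axis of variation left after the group means, as a covariate (0.39, adjusted p = 0.0174). The interaction of 0.34 (SE 0.27, adjusted p = 0.768) was not called, so a difference between the genotypes' responses was not shown.

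Npc1, the membrane protein that takes cholesterol from Npc2, was called nowhere and varied widely. Its levels went from 34.5 to 123 CPM in unstimulated wildtype, from 26.6 to 150.3 in unstimulated AhR-deficient, from 22.9 to 144 in LPS-stimulated wildtype and from 23.1 to 129 CPM in LPS-stimulated AhR-deficient libraries, so that all groups overlapped. In both LPS groups the libraries 25 to 32 were highest, at 102 to 144 CPM, and the libraries 33 to 40 were lowest, at 22.9 to 37.9 CPM. With the run as a factor Npc1 was called lower after LPS in AhR-deficient BMDMs (−0.74, adjusted p = 0.0382, against −0.56, SE 0.48, adjusted p = 0.372 without it). With the length slope as a covariate it was called lower after LPS in both genotypes (−0.45, adjusted p = 0.00299, in wildtype and −0.62, adjusted p = 0.000108, in AhR-deficient BMDMs), and with the first residual component in AhR-deficient BMDMs (−0.61, adjusted p = 0.000219). Its genotype differences within the runs were −0.077, 0.21 and 0.81 without stimulation and −0.096, −0.24 and 0.15 after LPS.

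Soat1, the enzyme that joins cholesterol to fatty acids for storage, had the narrowest spread of the set without stimulation and the only unstimulated genotype call (ENSMUSG00000026600, chromosome 1, 156424525 to 156474331 on the minus strand). Unstimulated wildtype libraries held 395 CPM at lowest, a median of 442 and 495.5 at highest, and AhR-deficient ones 542, 579.8 and 609.8 CPM, with no overlap, as for 5.15% of all genes. The difference was 1.31-fold (log2 fold change 0.39, SE 0.11, adjusted p = 0.0288). After LPS the levels were 261, 308 and 331 CPM in wildtype and 319, 393 and 467 CPM in AhR-deficient libraries, 1.29-fold higher (0.37, SE 0.11, adjusted p = 0.026), and the 2 lowest AhR-deficient libraries fell inside the wildtype range.

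Soat1 fell with LPS in both genotypes, by 0.55 on the log2 scale in wildtype (SE 0.11, adjusted p = 0.000301) and 0.57 in AhR-deficient BMDMs (SE 0.11, adjusted p = 0.000142), without overlap. The genotype differences were above 0 in each run, from 0.29 to 0.49 without stimulation and from 0.19 to 0.46 after LPS. They lay near the threshold. The unstimulated call was lost with total library size (0.31, adjusted p = 0.0511), with no filter on low counts (0.40, adjusted p = 0.0934), with Y-linked expression as a covariate (0.38, adjusted p = 0.051) and without libraries 33 to 40 (0.44, adjusted p = 0.0664). The call after LPS was lost with total library size (0.14, adjusted p = 0.376), with no filter (adjusted p = 0.0866), with only the libraries compared (adjusted p = 0.0781), without libraries 33 to 40 (adjusted p = 0.0808) and without the libraries lacking Y-linked counts (adjusted p = 0.0655). Leaving out 1 of 6 libraries (17, 19, 20, 25, 26 or 35) ended the unstimulated call, with adjusted p up to 0.0811, and leaving out 1 of 5 (22, 32, 38, 39 or 40) ended the call after LPS, with adjusted p up to 0.0854.

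**Figure D3:**
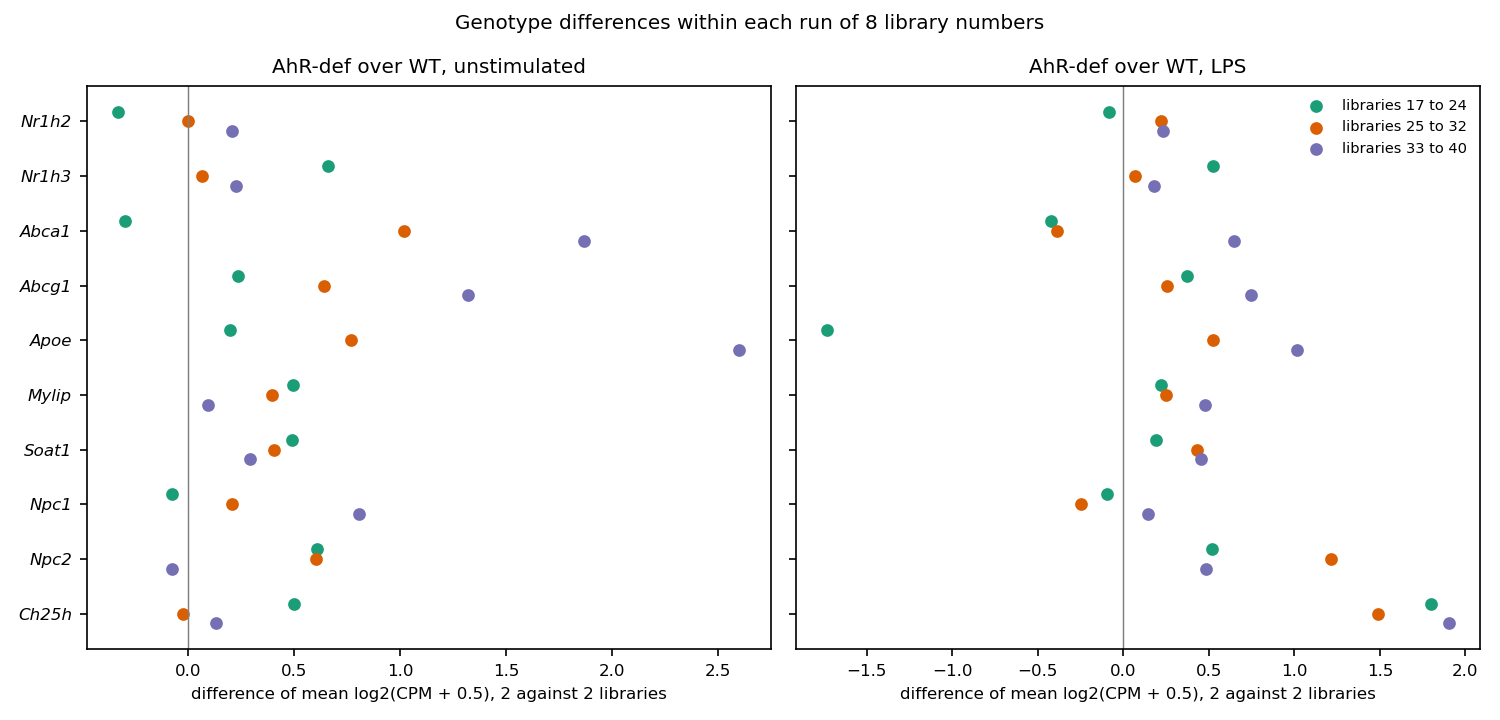
Difference of mean log2(CPM + 0.5) between AhR-deficient and wildtype libraries (x axis) for each gene (y axis), computed within each run of 8 library numbers from 2 against 2 libraries, without stimulation (left) and after LPS (right). Points of Soat1, Mylip, Abcg1 and Nr1h3 lie above 0 in all runs and both states, and those of Ch25h after LPS lie between 1.49 and 1.90.

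Both receptors responded to LPS, in opposite directions. Nr1h2 (ENSMUSG00000060601, chromosome 7, 44549616 to 44553951 on the minus strand) had medians of 39.04 CPM without stimulation and 59.9 CPM after LPS in wildtype (ranges 22.1 to 46.3 and 38.95 to 77.1), and 37.2 and 56.5 CPM in AhR-deficient libraries (23.6 to 47.9 and 43.5 to 92.6). The ranges overlapped in both genotypes. It rose by 0.61 (SE 0.23, adjusted p = 0.0354) in wildtype and 0.79 (SE 0.23, adjusted p = 0.00636) in AhR-deficient BMDMs. With total library size neither call held (0.26, adjusted p = 0.484, and 0.29, adjusted p = 0.398). The call in wildtype was also lost with no filter on low counts (adjusted p = 0.0703), with a mean of at least 1 CPM as the filter (adjusted p = 0.0536), with only the libraries compared (adjusted p = 0.0782), and when library 17, 21, 29, 30, 33 or 34 was left out, with adjusted p up to 0.0912.

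Nr1h3 (ENSMUSG00000002108, chromosome 2, 91184061 to 91202834 on the minus strand) lay between 61.4 and 107 CPM in unstimulated wildtype (median 72.4) and between 38.8 and 73.8 CPM after LPS (median 45.9), and in AhR-deficient libraries between 78.1 and 124 CPM (median 93.4) and between 39.9 and 76.0 CPM (median 66.1). Only the AhR-deficient ranges did not overlap. It fell by 0.64 on the log2 scale in wildtype (SE 0.19, adjusted p = 0.0113) and 0.69 in AhR-deficient BMDMs (SE 0.20, adjusted p = 0.00565), and both calls held in all alternatives but a minimum fold change of 2, which neither value reaches. The span of Nr1h3, introns included, shares 6873 bases with that of Gm13783, a noncoding gene on the same strand. Fragments on exons of several genes were not counted. How far the exons of these genes overlap, and so whether Nr1h3 lost counts, was not tested. Between genotypes neither receptor gene was called in the fit of groups alone. The log2 fold changes were −0.04 (SE 0.23) without stimulation and 0.13 (SE 0.23) after LPS for Nr1h2, and 0.31 (SE 0.19) and 0.27 (SE 0.19) for Nr1h3, and the value after LPS for Nr1h2 turned to −0.11 with total library size and was 0.20 and called once the length slope was a covariate (adjusted p = 0.0271). Within the runs the differences were −0.33, −0.001 and 0.21 without stimulation and −0.082, 0.22 and 0.23 after LPS for Nr1h2. For Nr1h3 they were 0.66, 0.067 and 0.23, and 0.53, 0.069 and 0.18.

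Of the exporters, Abca1, which loads cholesterol onto lipid-poor apolipoprotein, had the largest LPS response in wildtype and a wide spread. It lies on chromosome 4 (ENSMUSG00000015243, 53030787 to 53159895 on the minus strand). Unstimulated libraries held 1.14 CPM at lowest, a median of 23.7 and 33.9 at highest in wildtype, and 3.76, 39.1 and 68.9 CPM in AhR-deficient cells. After LPS they held 38.6, 234 and 864.5 CPM in wildtype and 56.7, 175 and 565.4 CPM in AhR-deficient cells. Levels within 1 group differed up to 22.4-fold after LPS and up to 29.9-fold without stimulation, both in wildtype. Abca1 rose with LPS by 4.04 (SE 0.87, adjusted p = 0.000688) in wildtype, without overlap, and by 2.82 (SE 0.83, adjusted p = 0.00723) in AhR-deficient BMDMs, with overlap. Without overlap between unstimulated and LPS libraries were 4 of the 10 genes in each genotype, beside 22.4% of all genes in wildtype and 28.5% in AhR-deficient BMDMs.

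Most of the spread of Abca1 within the LPS groups ran with the library numbers. In wildtype the levels were 232 to 235 CPM in libraries 17 to 24, 587 to 864.5 in libraries 25 to 32 and 38.6 to 70.8 in libraries 33 to 40, and in AhR-deficient cells 159 to 191, 522 to 565.4 and 56.7 to 119 CPM. Within the runs the LPS response was 3.76, 4.41 and 3.32 in wildtype and between 2.10 and 3.64 in AhR-deficient BMDMs. No genotype difference was called, with 0.88 (SE 0.78, adjusted p = 0.864) without stimulation and −0.33 (SE 0.77, adjusted p = 0.919) after LPS, and the interaction was −1.21 (SE 1.10, adjusted p = 0.848). Within the runs the genotype difference was −0.30, 1.02 and 1.87 without stimulation and −0.42, −0.39 and 0.65 after LPS, so its direction differed between runs in both states. With the length slope as a covariate the difference without stimulation was 0.68 and called (adjusted p = 0.0409), and so it was with the first residual component (0.79, adjusted p = 0.0184).

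The sequence before the Abca1 start is shown because a pair of receptor half-sites separated by 4 bases, the element that LXR is known to bind with its partner, is there. The degenerate form searched was GGTNA, 5 any bases and GGTCA, on both strands and chosen after the sequences had been seen. It matched from −67 to −53 in Abca1 and in no window of the other 7 genes, and 0.192% of the 27025 promoters hold it. The strict form, AGGTCA on both sides of 4 any bases, was in no window of the 8 genes and in 0.0111% of all promoters. In the sequence of chr4:53159946-53160145, minus strand, from −250 to −51, capitals mark the match, which reads on the opposite strand.
Abca1: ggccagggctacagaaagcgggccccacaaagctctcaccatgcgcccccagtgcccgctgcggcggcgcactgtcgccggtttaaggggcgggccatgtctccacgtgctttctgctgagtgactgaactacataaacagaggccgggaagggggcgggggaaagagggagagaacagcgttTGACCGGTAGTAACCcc
Binding was not measured in these libraries.

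Abcg1, the exporter that passes cholesterol to mature HDL particles, had a higher median per length than Abca1 in each group and was called in no comparison. Its levels were 88.7, 297 and 509.9 CPM (lowest, median, highest) in unstimulated wildtype, 157, 585 and 760.1 in unstimulated AhR-deficient, 105, 336 and 511 in LPS-stimulated wildtype and 149.5, 435 and 650.0 CPM in LPS-stimulated AhR-deficient libraries. All ranges overlapped. The genotype difference was 0.73 (SE 0.46, adjusted p = 0.618) without stimulation and 0.37 (SE 0.46, adjusted p = 0.779) after LPS. With the length slope as a covariate it was 0.67 (adjusted p = 2.31e-05) and 0.61 (adjusted p = 3.49e-05), and within the runs it was 0.24, 0.64 and 1.32 without stimulation and 0.37, 0.25 and 0.75 after LPS. For LPS that covariate gave −0.26 in wildtype (adjusted p = 0.0263) and −0.32 in AhR-deficient BMDMs (adjusted p = 0.00662), against 0.039 (adjusted p = 0.961) and −0.33 (adjusted p = 0.607) without it. The effect in AhR-deficient BMDMs was also called with the first residual component (−0.30, adjusted p = 0.00604). With the first residual component both genotype differences were called too (0.73, adjusted p = 2.83e-06, and 0.46, adjusted p = 0.000416). Both covariates were computed from the same libraries. The residual component holds 73.6% of the variance left after the group means, so as a covariate it takes out spread within groups. With it, genotype calls over all genes went from 1015 to 3043 without stimulation and from 2096 to 5412 after LPS.

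Apoe, the apolipoprotein that takes up exported cholesterol, was the least abundant member in the data after LPS and was scattered, from 0.341 to 6.68 CPM in unstimulated wildtype, 3.08 to 13.8 in unstimulated AhR-deficient, 0.480 to 16.4 in LPS-stimulated wildtype and 1.15 to 13.6 CPM in LPS-stimulated AhR-deficient libraries. Genotype differences of 1.17 (SE 0.71, adjusted p = 0.584) without stimulation and −0.38 (SE 0.71, adjusted p = 0.881) after LPS were within this spread. Within the runs they were 0.20, 0.77 and 2.60, and −1.73, 0.52 and 1.01. Mylip, by contrast, was even, with medians of 21.5, 25.8, 27.9 and 32.04 CPM in the 4 groups in the order above, and no call. Its genotype differences were 0.33 (SE 0.18, adjusted p = 0.463) and 0.31 (SE 0.18, adjusted p = 0.341), and each group overlapped the others. Within the runs they were 0.49, 0.40 and 0.095, and 0.22, 0.25 and 0.48. Given a covariate for the length slope, the difference after LPS was 0.35 (adjusted p = 0.0497). The LPS effect on Mylip in wildtype was 0.31 (SE 0.18, adjusted p = 0.182) and was called without libraries 33 to 40 (0.44, adjusted p = 0.0358) and without the libraries lacking Y-linked counts (0.49, adjusted p = 0.0442).

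**Figure D4:**
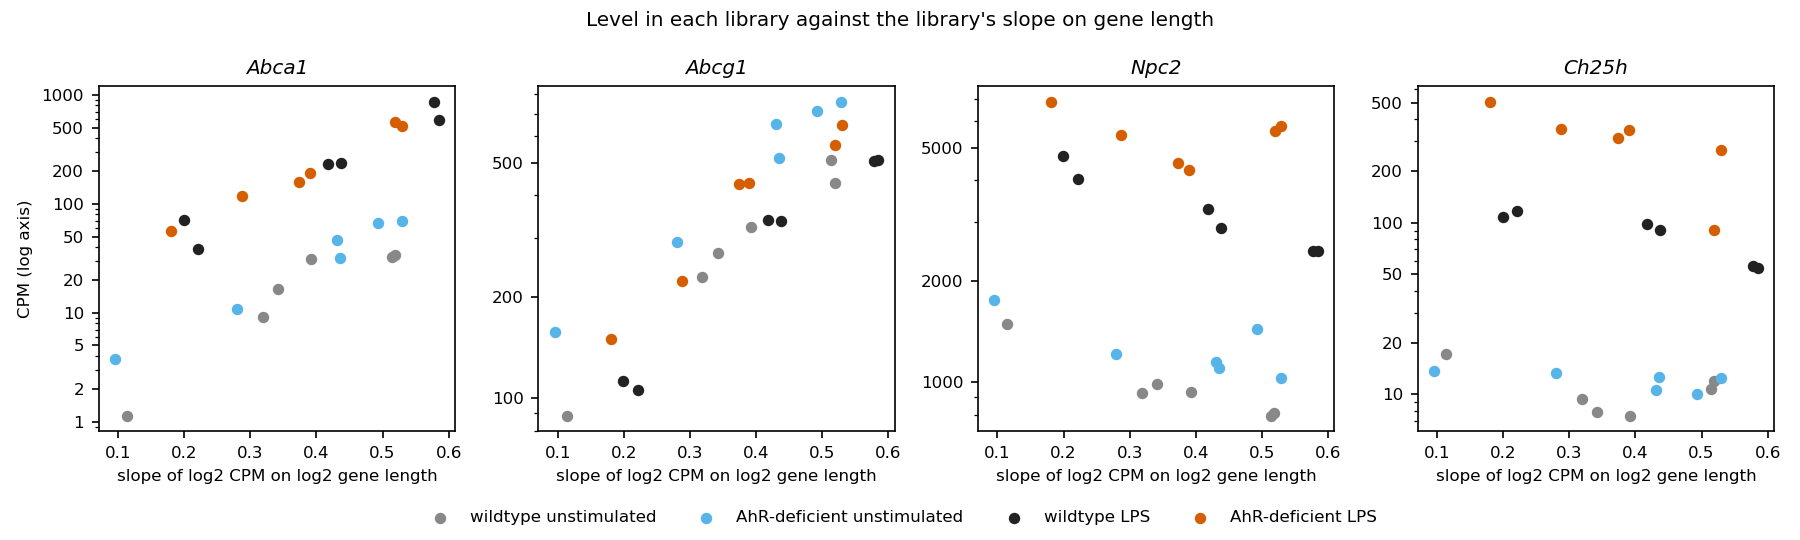
Level in each library (y axis, CPM on a log axis) against the slope of log2 CPM on log2 gene length in that library (x axis, no unit), coloured by group, for Abca1, Abcg1, Npc2 and Ch25h. Abca1 and Abcg1 climb with the slope in all groups, the wildtype LPS libraries of Npc2 and Ch25h descend with it, and the AhR-deficient LPS libraries of Ch25h lie above wildtype ones of like slope.

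After the group means were taken out, 4 genes went up and down together over the 24 libraries, Nr1h2, Abca1, Abcg1 and Npc1, with Pearson's r between 0.945 and 0.967 for each pair. Nr1h3 ran against them, with r from −0.888 to −0.786. Npc2 and Ch25h ran against them as well, with r of −0.745 and −0.683 to Abca1, and Apoe followed none of the others closely, with r between −0.303 and 0.173. These values are descriptions over 24 libraries that share the axis of gene length. The 4 genes that ran together had merged exons of 3354 (Nr1h2), 10363 (Abca1), 7298 (Abcg1) and 11317 bases (Npc1). Those that ran against them had 2515 (Nr1h3), 5438 (Npc2) and 1387 bases (Ch25h). Soat1, with 9791 bases, followed none of the 4, with r of −0.047 to Nr1h2, −0.093 to Abca1, −0.242 to Abcg1 and −0.012 to Npc1. The part of gene length in these values was not tested. Over all 24 libraries and all tested genes, the gene most like Ch25h in log2(CPM + 0.5) was Il27, a cytokine subunit of macrophages (r = 0.986), followed by Ms4a6d (0.985) and Fas (0.982). Nearest to Abca1 were Itgb1 (0.980), Tapbp (0.977) and Hcls1 (0.975), to Abcg1 Ndufa10 (0.980), Esyt1 (0.976) and Hadha (0.975), and to Npc2 Gm36161 (0.983), Rac3 (0.982) and Unc93b1 (0.980). For Nr1h2 they were Itgav (0.986), Fndc3a (0.985) and Lrrc8c (0.982), for Nr1h3 Cd200r4 (0.941), Ccl6 (0.936) and Paox (0.931), and for Npc1 Sec24a (0.976), Rab11b-ps2 (0.976) and Lrrc8b (0.973). Soat1 was nearest to Rab31 (0.931), Slc16a1 (0.930) and Ppt1 (0.925) and Mylip to Urgcp (0.862), Gm15931 (0.853) and Egr2 (0.847), while no gene passed 0.657 for Apoe (3300002I08Rik, then Dxo and Gm26590, both 0.629). Within the sterol lists described next, the nearest genes were Msr1 for Ch25h (0.936), Abcc1 for Abca1 (0.949) and Nr1h2 (0.974), Osbp for Abcg1 (0.970), Cav1 for Npc2 (0.913), Lipa for Nr1h3 (0.914), Scarb1 for Soat1 (0.834), Lpl for Mylip (0.784) and Abcg3 for Apoe (0.423).

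The other genes came from 9 lists with 110 members, of which 96 were tested, all on cholesterol handling but the last, on AhR and its feedback targets. The genotype counts are given beside the shares of all tested genes called in that direction, and the medians are log2 fold changes without stimulation and after LPS, which over all genes were −0.01 and −0.05. In the interaction, 1.95% of all genes were called higher and 2.34% lower. Counts of 0 by genotype below were 0 with DESeq2 and limma-voom too, and edgeR's unadjusted p under 0.05 gave 0 as well, except for 1 gene each among the cofactors (lower after LPS), the other LXR targets (higher after LPS) and the SREBP2 list (higher without stimulation). Of 12 tested partners and cofactors of LXR, 0 were called between genotypes in either state, beside 1.83% higher and 4.29% lower of all genes without stimulation and 4.33% and 8.30% after LPS, with median log2 fold changes of −0.021 without stimulation and −0.18 after LPS. Rxra, the retinoid receptor that pairs with LXR, fell with LPS from a median of 106 to 18.9 CPM in wildtype (−2.10, SE 0.48, adjusted p = 0.00106) and from 140.1 to 19.1 CPM in AhR-deficient BMDMs (−2.46, SE 0.48, adjusted p = 0.000185). Of 13 tested other LXR targets, 1 rose and 1 fell in AhR-deficient cells without stimulation, beside 1.83% and 4.29% of all genes, and 0 rose and 1 fell after LPS, beside 4.33% and 8.30% of all genes, with medians of 0.43 and −0.26. Pltp, which moves phospholipid between lipoproteins, rose 2.68-fold without stimulation (1.42, SE 0.38, adjusted p = 0.0214), and Elovl5, which lengthens polyunsaturated fatty acids, fell in both states (−0.70, adjusted p = 0.00177, and −0.89, adjusted p = 7.35e-05). Srebf1, the LXR target that drives fatty acid synthesis, was not called, with 0.35 (SE 0.41, adjusted p = 0.970) and 0.23 (SE 0.41, adjusted p = 0.865).

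Of 13 tested genes that make, turn over or sense oxysterols, 3 were called lower in AhR-deficient cells without stimulation, beside 4.29% of all genes, and 5 after LPS, beside 8.30%. In either state 0 were called higher, beside 1.83% of all genes without stimulation and 4.33% after LPS. The other 10 and 8 were not called, and the medians over the list were 0.18 without stimulation, with 7 of 13 values above 0, and −0.18 after LPS, with 3 above 0. Gpr183, the receptor for a dihydroxycholesterol that is made from the product of Ch25h, had medians of 31.3 CPM in wildtype and 4.28 CPM in AhR-deficient libraries without stimulation (ranges 13.99 to 40.9 and 3.33 to 12.2). After LPS they were 18.4 and 0.430 CPM (10.7 to 35.2 and 0 to 1.73), and neither state had overlap. The log2 fold changes were −2.36 (SE 0.56, adjusted p = 0.00832) and −5.10 (SE 0.64, adjusted p = 4.86e-06), with an interaction of −2.75 (SE 0.77, adjusted p = 0.0425). Gpr183 thus moved against Ch25h after LPS, and the neutrophil, dendritic and Langerhans cell markers given above were lower along with it. Cyp7b1, the enzyme between both, was under the count filter, with 24 counts in all libraries.

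Cyp27a1, which makes 27-hydroxycholesterol in mitochondria, was low throughout and fell with LPS by 2.44 on the log2 scale in wildtype (SE 0.33, adjusted p = 2.12e-06) and 3.73 in AhR-deficient BMDMs (SE 0.35, adjusted p = 6.11e-09). After LPS it was lower in AhR-deficient cells, at a median of 0.221 CPM against 0.649 (−1.48, SE 0.33, adjusted p = 0.00339), and without stimulation it was 3.42 against 3.40 CPM at the median and not called. Cyp11a1, which cleaves the cholesterol side chain, fell in both states (−2.91, adjusted p = 3.16e-05, and −2.39, adjusted p = 0.000147), and so did Hsd11b1, a reductase of steroids and oxysterols (−2.12, adjusted p = 0.00153, and −2.46, adjusted p = 0.000221). Osbpl9, an oxysterol-binding protein, fell after LPS by 0.44 on the log2 scale (adjusted p = 0.0143), with an interaction of −0.63 (adjusted p = 0.0316).

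**Figure D5:**
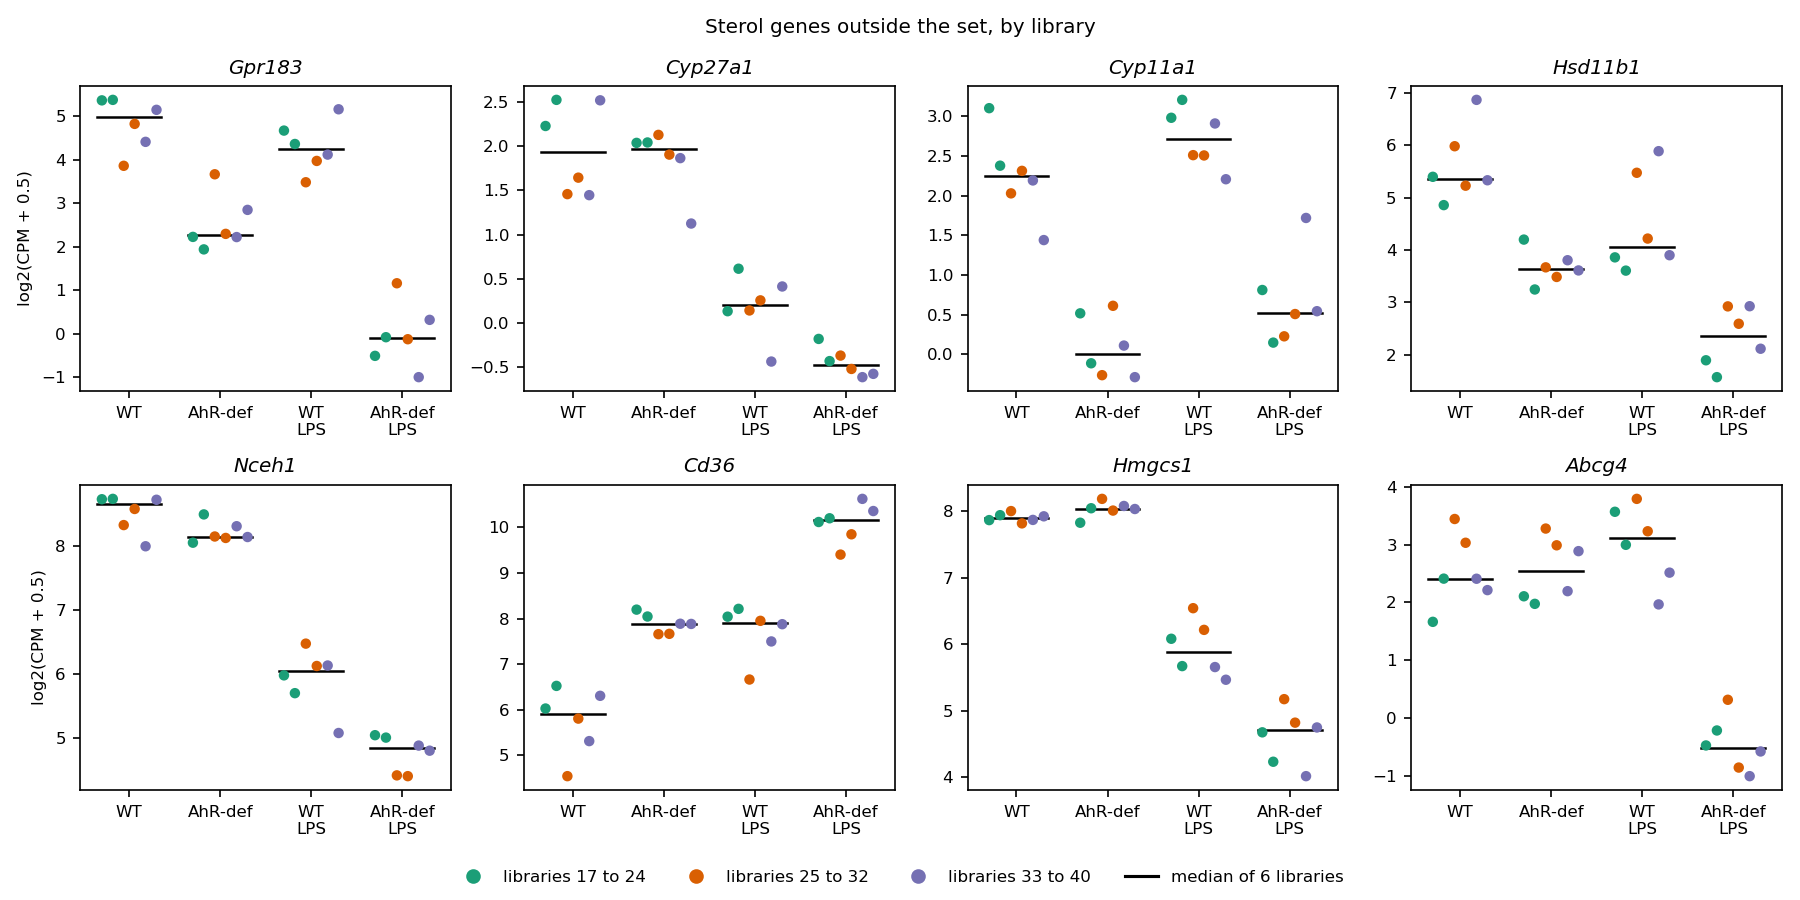
Level as log2(CPM + 0.5) (y axis) in the 4 groups (x axis), with 1 point per library coloured by run of library numbers and a bar at the median of 6, for 8 sterol genes outside the set. Gpr183, Cyp11a1 and Hsd11b1 are lower and Cd36 is higher in AhR-deficient libraries in both states, and Hmgcs1 and Abcg4 separate the genotypes after LPS, not without stimulation.

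Around Soat1 in the ester cycle, 2 of 9 tested genes rose and 1 fell without stimulation, beside 1.83% and 4.29% of all genes, and 1 rose and 2 fell after LPS, beside 4.33% and 8.30%, with medians of 0.16 and −0.013. Nceh1, a hydrolase that undoes the work of Soat1, lay at medians of 399.9 CPM in wildtype and 281 CPM in AhR-deficient libraries without stimulation, where it was not called (−0.32, adjusted p = 0.534), and at 65.9 and 28.2 CPM after LPS, where it was lower without overlap (−1.21, SE 0.19, adjusted p = 7.66e-05). Lipa, the lysosomal lipase that frees cholesterol from its esters, rose without stimulation from a median of 829 to 1296 CPM (0.70, SE 0.21, adjusted p = 0.0467) and was 0.62 (SE 0.21, adjusted p = 0.0561) after LPS. The droplet coat gene Plin3 rose in both states (0.64, adjusted p = 0.0184, and 0.52, adjusted p = 0.0411), and Dgat2, the last enzyme of triglyceride synthesis, fell in both (−2.32, adjusted p = 5.25e-06, and −1.19, adjusted p = 0.00321).

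Of 13 tested genes of intracellular cholesterol transport, 2 rose and 0 fell without stimulation, beside 1.83% and 4.29% of all genes, and 2 rose and 3 fell after LPS, beside 4.33% and 8.30%, with medians of 0.16 and −0.11. The genes that rose were Lamp1, a protein of the lysosomal membrane (0.41, adjusted p = 0.00651, and 0.50, adjusted p = 0.000666), and Cav1, the coat protein of caveolae (2.27, adjusted p = 1.55e-07, and 1.75, adjusted p = 2.39e-06). Stard4 and Tmem97, both known targets of SREBP2, fell after LPS (−1.21, adjusted p = 0.00031, and −0.83, adjusted p = 0.00399), as did Scp2 (−0.44, adjusted p = 0.0169). Their interactions were −1.39 for Stard4 (adjusted p = 0.00666) and −1.08 for Tmem97 (adjusted p = 0.0208). For lipoprotein uptake 1 of 10 tested genes rose without stimulation and 2 after LPS, beside 1.83% and 4.33% of all genes. In either state 0 fell, beside 4.29% and 8.30% of all genes, and the medians were 0.46 and 0.55. Cd36, the scavenger receptor for oxidised LDL, was 4.06-fold and 5.12-fold higher (2.02, adjusted p = 4.04e-05, and 2.36, adjusted p = 4.06e-06) without overlap, and Olr1 rose after LPS (0.64, adjusted p = 0.0261).

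Among 11 tested other exporters of the ABC family 0 rose in AhR-deficient cells, beside 1.83% of all genes without stimulation and 4.33% after LPS. Of these exporters 1 fell without stimulation and 2 fell after LPS, beside 4.29% and 8.30% of all genes called lower. The medians were 0.20 and −1.04. Abcg4, a close relative of Abcg1, was at medians of 4.82 and 5.49 CPM in wildtype and AhR-deficient libraries without stimulation and at 8.18 and 0.197 CPM after LPS (−4.97, SE 0.63, adjusted p = 5.98e-06; interaction −4.99, adjusted p = 0.00055). Abca5 fell after LPS (−2.59, adjusted p = 0.00121), and Abcb4, which was under 1.04 CPM throughout the unstimulated libraries, fell without stimulation (−3.93, adjusted p = 0.00949). In the list of SREBP2 control, the program of cholesterol synthesis, 0 of 9 tested genes were called without stimulation, beside 1.83% higher and 4.29% lower of all genes (median 0.081), and 2 fell after LPS, beside 8.30% of all genes (median −0.40), Hmgcs1 (−1.34, SE 0.18, adjusted p = 1.24e-05) and Sqle (−1.65, SE 0.23, adjusted p = 2.56e-05). Both had fallen with LPS in each genotype, and the interaction was called for these 2 and for Insig1 (−0.78, adjusted p = 0.0382), 3 of 9 lower beside 2.34% of all genes. In the list of AhR and its feedback targets, 3 of 6 tested genes fell without stimulation, beside 4.29% of all genes (medians −1.22, and −0.41 after LPS), Ahr (−1.93, adjusted p = 0.000971), Ahrr (−6.34, adjusted p = 1.00e-07) and Cyp1b1 (−3.32, adjusted p = 0.00528). After LPS 3 fell, beside 8.30%, Ahrr (−8.19, adjusted p = 4.93e-09), Cyp1b1 (−2.61, adjusted p = 0.0140) and Nqo1 (−0.75, adjusted p = 0.0401), while Ahr (1.36, adjusted p = 0.0110) and Tiparp (0.96, adjusted p = 0.000433) rose, beside 4.33% of all genes called higher, both with an interaction (3.29, adjusted p = 0.000375, and 1.48, adjusted p = 0.000783).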

How the data were processed

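Read pairs of mouse BMDM libraries were aligned by the authors (GSNAP, genome mm10), and featureCounts 2.0.1 assigned the unique alignments to genes of Ensembl release 98, reverse-stranded, leaving out fragments on several genes. The deposited values are these raw counts per gene, with merged exon lengths. The 92 spike-in sequences, with 1 count in all, were left out. Depth was 45106052 to 76992663 counts per library.

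The 24 libraries were fitted together in edgeR 4.0.16 (R 4.3.3), 1 coefficient for each group, with filterByExpr, TMM factors (0.704 to 1.30) and the robust quasi-likelihood F-test, adjusted by Benjamini-Hochberg over 16593 genes. The design follows the paper's groups. Calls use its adjusted p alone, and its minimum fold change of 2 is added only for DEGs. The fold changes are AhR-deficient over wildtype, or LPS over unstimulated. Symbols and positions came from GENCODE M21, and promoters from RefSeq. Plots used matplotlib 3.10.9. The scripts were tested on simulated data.

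The 10 genes, the lists and the tests were chosen with earlier results of these data known. From each list, up to 4 genes with the smallest p among those called in each genotype comparison are named, with any called in the interaction, besides Srebf1, Cyp27a1, Gpr183, Rxra, Lipa and Nceh1. A further gene under this rule is not reported here. For each of the 10 genes the 3 most similar genes are named, with the nearest in the lists. The biological coefficient of variation was 49.1%, so p-values measure mostly the spread between libraries. Alternatives were DESeq2 1.42.0 and its size factors, limma-voom (limma 3.58.1), total library size, other filters, only the libraries compared, covariates for run, length slope, residual component or Y-linked expression, and leaving out single libraries. After the data had been seen, leaving out libraries 33 to 40, and leaving out the libraries without Y-linked counts, were added.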

Additional observations from a re-analysis of the deposited data

Results flagged for a closer look

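In 40 groups, the 10 genes in 4 groups of 6 libraries, 2 libraries stood apart from the other 5 by Dixon's criterion, which chance meets in about 1 group in 20. Apoe had 13.6 CPM in AhR-deficient LPS replicate 40, where the nearest of the others had 5.27 CPM. Npc2 had 1493 CPM in unstimulated wildtype replicate 33, where the nearest had 989 CPM, and this library also had the lowest Abca1 level of all 24, at 1.14 CPM, and a slope on gene length of 0.114.

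The LPS response of Ch25h differed between genotypes, with an interaction of 1.67 on the log2 scale. All 6 libraries of each genotype lay above the unstimulated libraries of that genotype.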

How the results depend on the processing

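No paired analysis was possible because the groups share no replicate numbers and the labels tie no library to an animal. The 2 libraries lacking Y-linked counts were unstimulated wildtype 34 and LPS-stimulated wildtype 38, and whether they came from 1 animal is not stated. With the run as a factor the counts below were 1, 3, 6, 7 and 1. Counts of called genes among the 10 were 1 and 3 for genotype (without stimulation, after LPS), 6 and 6 for LPS (wildtype, AhR-deficient) and 1 for the interaction. Without stimulation the count was 0 with total library size, with no filter or with Y-linked expression as a covariate, 4 with the length slope or the first residual component, and 0 to 1 with single libraries left out. Without libraries 33 to 40 it was 1, with Npc2 called and Soat1 not. After LPS it was 6 with the length slope and 2 to 3 with single libraries left out. The interaction count was 0 with limma-voom and without libraries 33 to 40. With a minimum fold change of 2 the counts were 0, 1, 3 and 3, and over all genes 744, 1387, 4137 and 5105. Over all genes, calls were 1015, 2096, 6305, 7402 and 713 in this order and became 2857, 5751, 10197, 10830 and 2793 with the length slope and 3043, 5412, 10108, 10835 and 2750 with the first residual component, and the interaction had 1125 with DESeq2, 1201 with run as a factor and 373 without libraries 33 to 40. The cause was not tested.

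With total library size the median over all genes shifted to −0.26 for genotype after LPS, −0.31 and −0.52 for LPS (wildtype, AhR-deficient) and −0.18 for the interaction, and the share of calls that were higher went from 34.3% to 14.4%, 51.9% to 30.3%, 49.4% to 26.8% and 45.4% to 31.4%. Without stimulation it went from 29.9% to 22%.

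No value that was called in the fit of groups alone turned its sign, and of the turned values 1 was called, Abcg1 by LPS in wildtype with the length slope. For genotype after LPS they were −0.11 for Nr1h2 (total library size), 0.18 for Abca1 and 0.077 for Npc1 (length slope), and 0.042 (limma-voom) and 0.14 (no libraries lacking Y-linked counts) for Apoe. For LPS in wildtype Abcg1 had −0.31 (total library size), −0.035 (mean of at least 1 CPM), −0.030 (limma-voom), −0.027 (first residual component), −0.034 (Y-linked covariate), −0.020 (only the libraries compared), −0.073 (run) and −0.26 (length slope, adjusted p = 0.0263), Mylip −0.026 (total library size) and Npc1 0.036 and 0.090 (without libraries 33 to 40 and without those lacking Y-linked counts). For LPS in AhR-deficient BMDMs Mylip had −0.19 (total library size). For the interaction Nr1h3 had 0.002, 0.035 and 0.006 (mean of at least 1 CPM and both sets left out), Mylip 0.022, 0.011 and 0.024 (mean of at least 1 CPM, run, length slope) and Soat1 0.02 (mean of at least 1 CPM).

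With single libraries left out, ranges that crossed 0 were −0.158 to 0.058 and −0.015 to 0.227 for Nr1h2 by genotype without stimulation and after LPS, −0.70 to 0.21 for Abca1, −0.99 to 0.14 for Apoe and −0.46 to 0.16 for Npc1 after LPS, −0.15 to 0.24 for Abcg1 and −0.36 to 0.14 for Npc1 by LPS in wildtype, and −0.118 to 0.065 for Mylip, −0.16 to 0.09 for Nr1h3 and −0.091 to 0.020 for Soat1 in the interaction.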
